A study of Mus musculus with 10 samples.

Results

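The genes described here are 10 genes of MHC class I antigen presentation, chosen by symbol: the heavy chains H2-K1 and H2-D1, B2m, Tap1, Tap2, Tapbp, Psmb8, Psmb9, Psmb10 and Nlrc5. They are 10 of the 55359 genes counted in 10 RNA libraries of F4/80+ macrophages from mouse melanomas, and all 10 passed the filter on low counts, which left 14374 genes to test. Of the libraries, 5 came from Ccr2 KO mice, which carry an RFP allele of Ccr2 on both chromosomes (Ccr2RFP/RFP), and 5 from control mice, which carry it on 1 chromosome (Ccr2RFP/+). All were from males whose Braf-mutant tumours had become resistant and rebounded under daily BRAF and MEK inhibitors. The controls therefore also carry an RFP allele and were also drug-treated, although the titles call them wild type, and neither ages nor the tumour line could be taken from the labels. Ccr2 is the chemokine receptor that monocytes use to leave the bone marrow and enter inflamed tissue. The labels do not say that each library came from a separate animal, so the p-values reflect differences between these libraries that may in part be technical.

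MHC class I molecules display peptides from inside the cell to CD8 T cells. The proteasome cuts proteins into peptides, and in cells exposed to interferon the catalytic subunits Psmb8, Psmb9 and Psmb10 replace Psmb5, Psmb6 and Psmb7 to form the immunoproteasome. Tap1 and Tap2 form the transporter that pumps peptides into the endoplasmic reticulum, where tapasin (Tapbp) helps to load them onto a heavy chain bound to beta-2-microglobulin (B2m). Nlrc5 is the transactivator of class I genes. It binds no DNA itself and acts through factors assembled on the conserved S-X-Y module of their promoters, as the related Ciita does at class II genes. In macrophages these genes are induced by interferons, and CD8 T cells can recognise peptides presented on the cell surface.

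Promoters from RefSeq (GRCm38.p6) were available for 8 of the 10 genes, all but Tap2 and Nlrc5, each with 250 bases before the annotated start of the gene and 50 from it on. The promoters of 4 genes are shown because these genes stand for the heavy chains, the light chain and the transporter, whose levels varied together across libraries. They lie at chr17:34000298-34000597 (minus strand), chr17:35262844-35263143 (plus strand), chr2:122147437-122147736 (plus strand) and chr17:34187306-34187605 (plus strand). Each is written 5′ to 3′ along its gene, and capitals mark matches, on either strand, to GGGGA and TCCCC with 1 base between them, to GAAA repeated with 2 bases between, to TGACG or to CCAAT.
H2-K1: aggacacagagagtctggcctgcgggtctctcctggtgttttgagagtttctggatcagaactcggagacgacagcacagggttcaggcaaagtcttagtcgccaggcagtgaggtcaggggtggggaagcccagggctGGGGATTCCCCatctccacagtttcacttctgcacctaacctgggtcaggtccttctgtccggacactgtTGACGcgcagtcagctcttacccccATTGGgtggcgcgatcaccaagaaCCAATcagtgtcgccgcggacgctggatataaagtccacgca
H2-D1: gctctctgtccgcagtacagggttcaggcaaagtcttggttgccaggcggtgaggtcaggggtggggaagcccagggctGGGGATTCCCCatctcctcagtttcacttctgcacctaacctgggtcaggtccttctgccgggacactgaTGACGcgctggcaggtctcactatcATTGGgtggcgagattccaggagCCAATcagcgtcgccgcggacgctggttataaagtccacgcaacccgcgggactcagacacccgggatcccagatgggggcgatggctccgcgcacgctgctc
B2m: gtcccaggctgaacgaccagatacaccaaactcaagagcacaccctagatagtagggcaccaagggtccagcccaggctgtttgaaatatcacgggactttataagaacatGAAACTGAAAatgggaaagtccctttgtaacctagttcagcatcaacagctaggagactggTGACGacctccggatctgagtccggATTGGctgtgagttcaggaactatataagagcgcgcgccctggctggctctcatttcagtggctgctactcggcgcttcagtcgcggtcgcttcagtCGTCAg
Tap1: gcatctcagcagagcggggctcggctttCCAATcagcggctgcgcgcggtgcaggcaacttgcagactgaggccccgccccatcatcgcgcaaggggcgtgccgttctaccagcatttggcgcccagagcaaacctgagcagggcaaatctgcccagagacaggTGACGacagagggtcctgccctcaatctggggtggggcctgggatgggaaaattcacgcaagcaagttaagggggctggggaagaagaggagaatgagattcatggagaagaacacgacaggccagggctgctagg
The heavy-chain promoters resembled each other and both held GGGGA and TCCCC 1 base apart, the palindromic half-sites of an NF-kappaB-type motif, which 12 of 27025 promoters of this length held (0.0444%). TGACG, the core of the X2 box, stood in 5 of the 8 promoters (H2-K1, H2-D1, B2m, Tap1 and Psmb9), against 21.0% of all promoters. CCAAT, the core of the Y box, stood in 6 of the 8 (those 5 and Tapbp), against 37.9% of all. The GAAA repeat, of the kind bound by interferon regulatory factors, was found in B2m alone of the 8, against 3.49% of all. Only exact matches at this spacing were searched, so other forms of such sites would be neither counted nor marked. TTC and GAA with 3 bases between them, the palindrome of interferon gamma-activated sites, was found in Psmb8 alone, against 8.47% of all. None of the matches marked overlapped another. The windows of Tap1 and Psmb9 are not independent, since these neighbouring genes start on opposite strands and their windows share 275 bases. Their TGACG matches are the same genomic bases, and so are their CCAAT matches, so each of these sites is counted for both genes.

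The libraries held 34639808 to 43360206 gene counts, of which the 10 genes took 1374 (Nlrc5) to 211408 (H2-D1) in a library. The targeted gene followed the labels, with Ccr2 at 147 to 261 counts in Ccr2 KO libraries, against 2225 to 7270 counts in control libraries. The 12 macrophage markers, Adgre1 (F4/80) and Csf1r among them, summed to 31578 to 39553 CPM (counts scaled to library size) in Ccr2 KO and 29929 to 36317 CPM in control libraries, and all 12 were detected. In bulk RNA, fewer cells of a type and less RNA per cell cannot be told apart. Some libraries were closer to each other than to the rest of their group. The median chi-square between the gene counts of a pair was 2.66 for control libraries 3 and 4 and 2.75 for control 1 and 2. It was 6.54 for Ccr2 KO 4 and 5, where sampling alone gives 0.455 and the most distant pair had 23.5. Ccr2 KO 2 and control 3, of different genotypes, had 5.71, and Ccr2 KO 2 and 5 had 6.84. Ccr2 KO 4 and 5 therefore did not stand apart as the control pairs did. All 5 of each group were counted as separate libraries, and the counts of called slopes are given also with the close ones summed.

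None of the 10 genes passed the test of Ccr2 KO against control macrophages in edgeR, DESeq2 or limma-voom. Of the 14374 genes tested, 203 (1.41%) passed an adjusted p of 0.05 in edgeR, 0.870% of all genes as higher and 0.543% as lower in Ccr2 KO, and the class I genes gave 0 of 10. At an unadjusted p under 0.05 the count was also 0 of 10, beside 15.3% of all genes. The fitted log2 fold changes, Ccr2 KO over control, lay between -0.24 (B2m) and -0.02 (Tapbp), with standard errors of 0.24 to 0.42. All 10 were below 0, as were 50.5% of all genes, and their median was -0.16, against -0.00335 over all genes tested. Without Ccr2 KO library 1, only Nlrc5, B2m and Psmb10, 3 of 10, stayed below 0. Within a genotype the libraries lay far apart, and the values are given by library for that reason.

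Nlrc5, the transactivator, had 36.4, 115, 34.8, 88.0 and 92.0 CPM in Ccr2 KO libraries 1 to 5, against 62.2, 56.3, 111, 125 and 68.9 CPM in control libraries 1 to 5. Ccr2 KO libraries 1 and 3 lay below every control library, and the other 3 lay within the control range. The means were 73.3 ± 35.9 CPM in Ccr2 KO and 84.8 ± 31.3 CPM in control (SD, n = 5 each). The log2 fold change was -0.21, with a 95% interval of -1.01 to 0.59 (edgeR quasi-likelihood test, adjusted p = 0.820).

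The heavy chains bind the peptide and are the part that a T cell receptor reads. H2-K1 had 1006, 3915, 1658, 3394 and 3565 CPM in Ccr2 KO libraries 1 to 5, against 2428, 2892, 3491, 3773 and 2662 CPM in control libraries. H2-D1 had 1719, 5088, 2729, 4821 and 4897 CPM in Ccr2 KO, against 3654, 4182, 4284, 4479 and 3598 CPM in control. For H2-D1 the Ccr2 KO libraries fell on both sides of the controls, with libraries 1 and 3 below all 5 of them and libraries 2, 4 and 5 above all 5. The log2 fold changes were -0.17 (95% interval -0.90 to 0.55, adjusted p = 0.838) for H2-K1 and -0.07 (-0.65 to 0.51, adjusted p = 0.923) for H2-D1 in edgeR. These 2 genes resemble each other and other class I genes. In their longest annotated coding transcripts 8.79% of 50-base windows of H2-K1 and 14.3% of those of H2-D1 also occurred in another gene, and multimapping reads were listed as 0, so their levels carry that uncertainty.

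B2m, the light chain of every class I molecule, had 1435, 3667, 1720.3, 2390.1 and 3322 CPM in Ccr2 KO libraries, against 2657, 3216, 3266, 3309 and 2347 CPM in control libraries. It had the lowest fitted fold change of the 10 genes, a log2 of -0.24 (95% interval -0.78 to 0.30, edgeR adjusted p = 0.672). Ccr2 KO libraries 1 and 3 were again lowest, and libraries 2 and 5 were above every control.

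Tap1, the first transporter subunit, had 94.2, 498, 173, 441 and 479 CPM in Ccr2 KO libraries, against 263, 281, 467, 489 and 267 CPM in control libraries. Its values ranged over 5.29-fold among Ccr2 KO and 1.86-fold among control libraries, and the controls fell into a lower set (1, 2 and 5) and a higher pair (3 and 4). Tap2, its partner, averaged 163 ± 54.1 CPM in Ccr2 KO and 183 ± 35.1 CPM in control libraries (SD, n = 5 each), with a range of 2.66-fold and 1.46-fold. Tapbp, which holds the transporter and the empty heavy chain together, ran between 191 and 499 CPM in Ccr2 KO and between 312 and 419 CPM in control libraries, with 3 Ccr2 KO libraries above all controls. The log2 fold changes were -0.07 (95% interval -0.995 to 0.86), -0.17 (-0.70 to 0.36) and -0.02 (-0.55 to 0.50) for Tap1, Tap2 and Tapbp. The fold change of Tap1 was 0.17, 0.099, 0.054 and 0.079 without Ccr2 KO library 1, Ccr2 KO 3, control 3 and control 4, so its sign depended on single libraries.

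The immunoproteasome subunits were also lowest in Ccr2 KO libraries 1 and 3. Psmb9 had 43.9, 181, 84.1, 158 and 166 CPM in Ccr2 KO libraries, against 116, 126, 175, 174 and 103 CPM in control libraries. Psmb8 averaged 377 ± 154 CPM in Ccr2 KO and 417 ± 76.7 CPM in control, and Psmb10 165 ± 59.7 CPM in Ccr2 KO and 186 ± 20.7 CPM in control (SD, n = 5 each). Their log2 fold changes were -0.13 (95% interval -0.88 to 0.62), -0.15 (-0.77 to 0.47) and -0.18 (-0.70 to 0.34) for Psmb9, Psmb8 and Psmb10. The log2 ratio of Psmb8 to Psmb5, the subunit it replaces, was 1.98, 3.30, 2.18, 2.96 and 3.14 in Ccr2 KO libraries 1 to 5, against 2.89, 2.98, 3.48, 3.53 and 2.75 in control libraries. That ratio is a within-library contrast of 2 genes of unlike length, so only its differences between libraries can be read. Psmb5 itself was between 41.8 and 60.6 CPM in Ccr2 KO and between 42.9 and 51.1 CPM in control libraries, a narrower range than that of Psmb8.

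**Figure D1:**
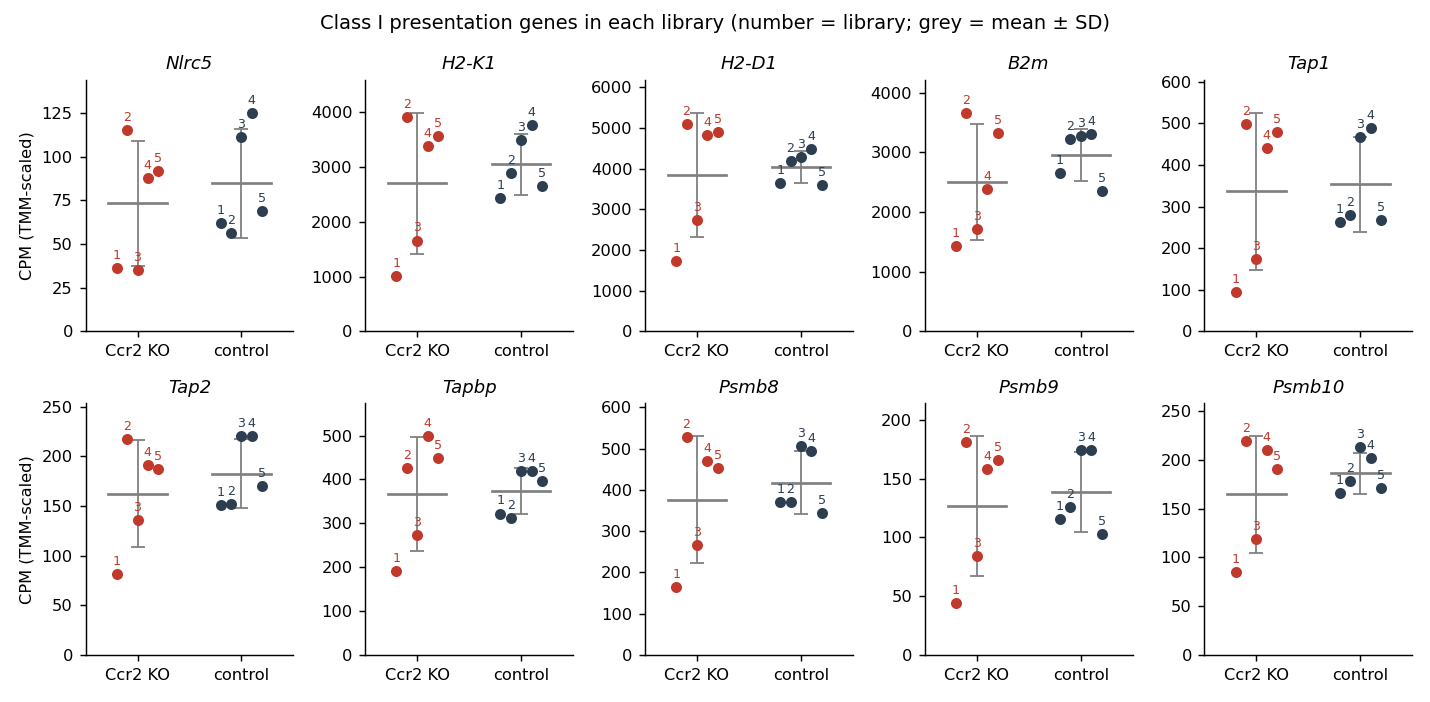
CPM (vertical axes, starting at 0) of the 10 class I genes in each Ccr2 KO library (red, left) and each control library (dark, right); points are libraries with their number, and bars give the mean and SD over 5. Ccr2 KO libraries 1 and 3 lie below every control library in all 10 panels, as for H2-K1 at 1006 and 1658 CPM against a lowest control of 2428.

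The spread within Ccr2 KO ran the same way in every gene. Ccr2 KO library 1 had the lowest value of all 10 libraries in 9 of 10 genes, and Ccr2 KO library 3 had it for Nlrc5. Both libraries were below every control library in 10 of 10 genes. Ccr2 KO library 2 was above every control in 8 of 10 genes, all but Nlrc5 and Tap2, and was the highest of all libraries in 7. The groups overlapped in 10 of 10 genes, where 4.70% of all genes tested did not overlap. The highest Ccr2 KO library exceeded the lowest by 2.55-fold (B2m) to 5.29-fold (Tap1), while the same ratio among controls ran between 1.24-fold (H2-D1) and 2.23-fold (Nlrc5).

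**Figure D2:**
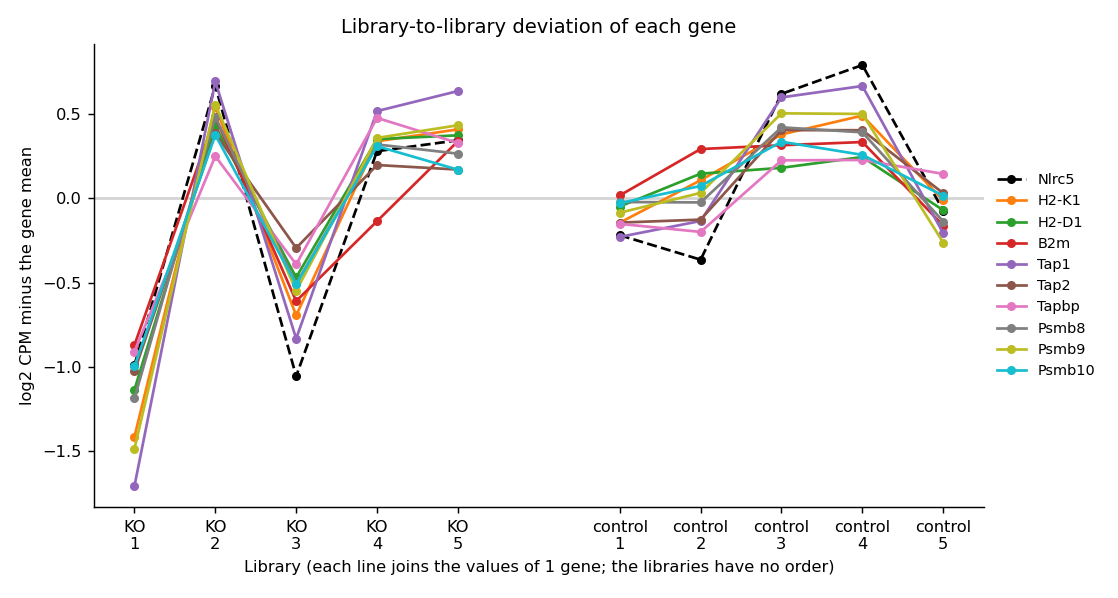
Level of each of the 10 genes in each library, as the difference of its log2 CPM from its mean over the 10 libraries (vertical axis), with the 5 Ccr2 KO libraries at the left and the 5 control libraries at the right; each line joins the values of 1 gene, and the libraries have no order. The lines run nearly together, low in Ccr2 KO libraries 1 and 3. They are above their means in Ccr2 KO libraries 2, 4 and 5 and control libraries 3 and 4, except B2m in Ccr2 KO library 4.

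On the log2 scale the SD between libraries was 0.57 to 1.08 in Ccr2 KO and 0.14 to 0.52 in control. It was greater in Ccr2 KO for 10 of 10 genes, where 67.0% of all genes tested had the greater SD in Ccr2 KO, and the median ratio of the SDs was 2.68 for the 10 genes and 1.30 for all. The ratio was highest for H2-D1 (0.69 in Ccr2 KO and 0.14 in control, a ratio of 4.88) and lowest for Nlrc5 (0.81 and 0.52, a ratio of 1.56). An exact two-sided permutation test of the absolute deviations from the group medians, whose smallest possible p is 0.00794, called none of them. The lowest p was 0.103, for B2m, and after adjustment over all genes it was 0.997 for each of the 10. No gene of the 14374 passed that adjustment (0.00%) and 0.821% had an unadjusted p under 0.05. Given that smallest possible p, a gene could pass only if a large share of all genes reached it too. The adjusted result therefore cannot show that the spreads were alike. The SD in Ccr2 KO stayed above that in control for all 10 genes without Ccr2 KO library 1, between 0.29 and 0.76. With Ccr2 KO library 2, 4 or 5 left out, 4, 6 and 4 of the 10 genes had an unadjusted p under 0.05, and so did 1089, 1003 and 1315 of all genes, against 118 with all libraries. With any other single library left out 0 of the 10 did, although 835 and 1070 of all genes did without Ccr2 KO 1 and 3 in turn. No gene had an adjusted p under 0.05 in any of these settings.

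**Figure D3:**
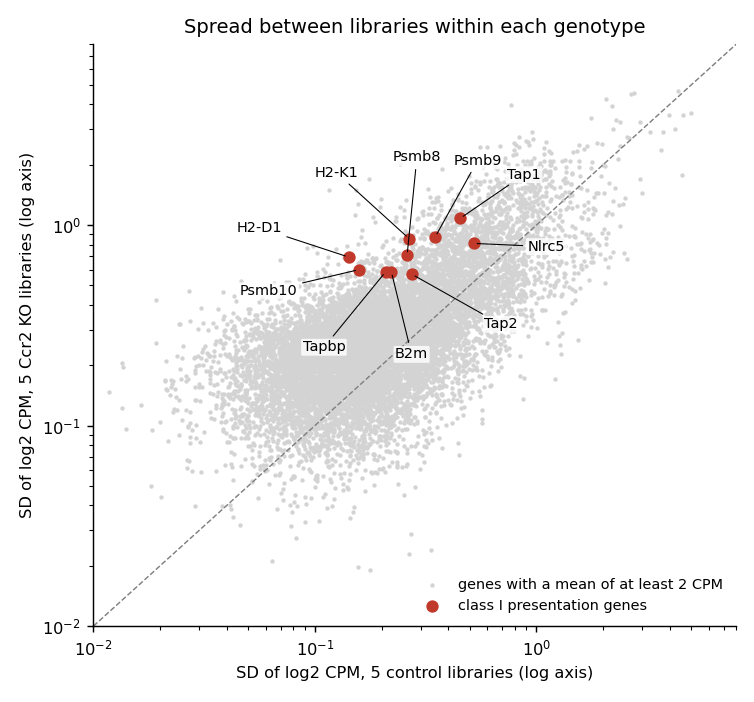
SD of log2 CPM among 5 Ccr2 KO libraries (vertical, log axis) against the SD among 5 control libraries (horizontal, log axis) for the 10 class I genes (red) and for the tested genes whose mean reached 2 CPM (grey); the dashed line marks equal SDs. The class I genes lie above the line, with H2-D1 at 0.69 against 0.14 and Nlrc5 at 0.81 against 0.52.

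Across libraries the class I genes moved almost as a unit. Over the 36 pairs of the 9 genes besides Nlrc5, Pearson's r of the deviations from genotype means, over 10 libraries, ran between 0.76 (B2m and Tapbp) and 0.995 (Psmb8 and Psmb9), with a median of 0.96. These r are a description, since all genes share the same libraries.

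All 9 genes rose with Nlrc5 across libraries. A slope was fitted to the log2 CPM of Nlrc5 with genotype in the model, so that it reflects differences among libraries of a genotype, and 9 of 9 passed an adjusted p of 0.05 with a positive slope. Of the 14373 genes tested, 371 (2.58%) had such a positive slope and 582 (4.05%) a negative one, together 6.63%. Tap1 had the steepest slope, 1.10 ± 0.15 log2 units per log2 unit of Nlrc5 (SE, edgeR adjusted p = 0.00372), so its level changed about in proportion to that of Nlrc5. Psmb9 (0.82 ± 0.15, adjusted p = 0.0121) and H2-K1 (0.81 ± 0.14, adjusted p = 0.00973) came next, followed by Psmb8 at 0.68 ± 0.12 (adjusted p = 0.00924). The other 5, H2-D1, Tap2, Psmb10, Tapbp and B2m, had slopes of 0.54 to 0.59 with standard errors of 0.10 to 0.14 and adjusted p between 0.0126 and 0.0314. Those 5 slopes lay within 1 standard error of each other. The promoters shown above include the steepest gene, Tap1, and the shallowest, B2m, and both held TGACG and CCAAT, in unlike arrangements. In B2m TGACG began at -78 and 44 from the gene start, and CCAAT at -53. In Tap1 TGACG began at -86 and CCAAT at -222. A link of these matches to the slopes was not tested.

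The calls were not kept without Ccr2 KO libraries 1 and 3, the pair farthest from the median of Nlrc5. The slopes then changed to an extent that differed between genes. Without these libraries 0 of 9 genes passed, and 3 genes in all. By edgeR the adjusted p was then 0.113 for Tap1, 0.121 for Tap2 and 0.604 for B2m. Whether fewer libraries alone cost these calls was not tested. The slope was then 0.52 for Tap2, 0.80 for Tap1, 0.57 for Psmb9 and 0.46 for Psmb8, each within 1.5 times of its value over all libraries. It was 0.45 for H2-K1, 0.29 for Tapbp, 0.28 for B2m, 0.27 for Psmb10 and 0.18 for H2-D1, lower by over 1.5 times. With the close control libraries summed, 6 of 9 passed. With Ccr2 KO 4 and 5 summed as well, 1 of 9 passed, Tap1, although the slopes were 0.55 (Tapbp) to 1.12 (Tap1). With Ccr2 KO 4 and 5 left out and every control kept separate, 1 of 9 passed, again Tap1, with slopes of 0.45 (Tapbp) to 0.998 (Tap1). With any single library left out 7 to 9 of the 9 passed. The calls lost were those of H2-D1 without Ccr2 KO 2, 3, 4 or 5 or control 1 (edgeR adjusted p of 0.0511 to 0.0771) and of B2m without Ccr2 KO 1, 2, 3 or 5 or control 1 (0.0505 to 0.0910).

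The slopes did not differ detectably between genotypes. The slope in Ccr2 KO minus that in control was positive for 9 of 9 genes, between 0.06 (Tap2) and 0.58 (H2-D1). None passed after adjustment, nor did any of 14373 genes (0.00%), with an adjusted p of 0.9996 for each of the class I genes. An unadjusted p under 0.05 was seen for H2-D1 but for no other class I gene, beside 3.95% of all genes.

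**Figure D4:**
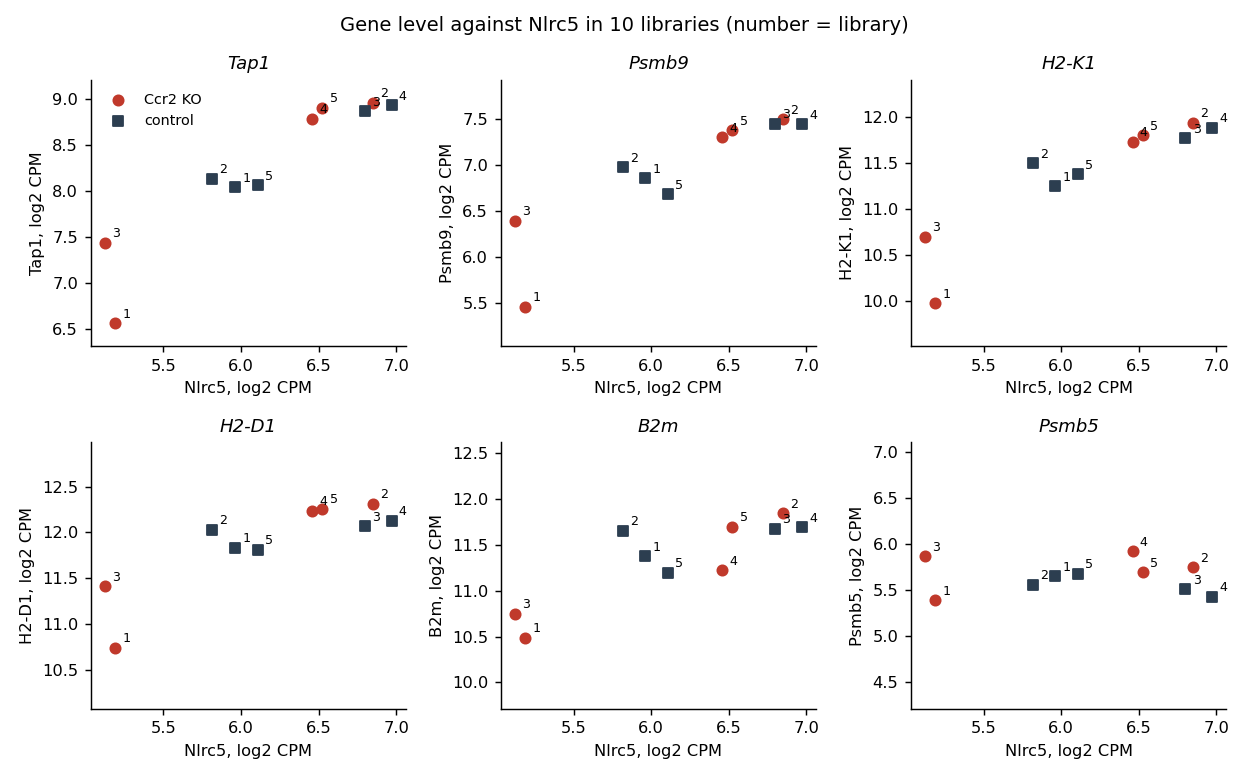
Log2 CPM of the class I genes Tap1, Psmb9, H2-K1, H2-D1 and B2m, and of the constitutive subunit Psmb5 (vertical axes), against log2 CPM of Nlrc5 (horizontal axes). Ccr2 KO libraries are red and control libraries dark, with the library numbers. In the class I panels Ccr2 KO libraries 1 and 3 sit at the lower left, and the other 8 libraries spread over a narrower range of the gene. In the Psmb5 panel Ccr2 KO library 1 is low (5.39) and Ccr2 KO library 3 high (5.87), against 5.43 to 5.68 in control libraries.

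As correlations over the 10 libraries, Pearson's r with Nlrc5 was 0.84 (H2-D1) to 0.93 (Tap1), and Spearman's rho 0.78 (Tapbp) to 0.93. By two-sided permutation tests with 100000 resamples and adjustment over all 14373 genes, 6 of 9 passed for Pearson's r (H2-K1, Tap1, Tap2, Psmb8, Psmb9 and Psmb10), where 0.577% of all genes passed with a positive r and 0.744% with either sign. For Spearman's rho 0 of 9 passed, with adjusted p of 0.131 to 0.242 and unadjusted permutation p of 0.00039 to 0.0104. Without Ccr2 KO libraries 1 and 3, Pearson's r over 8 libraries ran between 0.52 (B2m) and 0.98 (Tap2). None of the 9 then passed by exact permutation over 40320 orders, and neither did any other gene (0.00%), with unadjusted exact p of 0.000496 for Tap2 to 0.194 for B2m. With so few orders, a gene could pass only if several others also reached the smallest possible p. The absence of calls therefore does not show that the link was lost. Between 0.52 and 0.98, r was 0.92 for Tap1 and Psmb8, 0.89 for H2-K1, 0.88 for Psmb9, 0.86 for Psmb10, 0.71 for Tapbp and 0.65 for H2-D1.

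The genes most like Nlrc5 came from outside the class I genes. By Pearson's r of deviations from genotype means over 10 libraries, among named genes of at least 2 CPM, the closest included Parp12 and Cd180 (0.99 each), Themis2, Cd40 and Znfx1 (0.98 each), and Irgm1 and Trim21 (0.97 each). Parp12 is an interferon-stimulated ADP-ribosyltransferase, Cd180 a Toll-like receptor relative on B cells and macrophages, and Cd40 a costimulatory receptor. Irgm1 is an interferon-induced GTPase and Trim21 an intracellular antibody receptor. Among the class I genes this r ran between 0.83 and 0.93 with a median of 0.89, against 0.0274 over all genes, and 390 genes (2.71%) were at or above the lowest of them.

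The other genes of the class I pathway were split in their link to Nlrc5. Of 21 such genes 0 passed the test of Ccr2 KO against control, with a median log2 fold change of -0.02. At an unadjusted p under 0.05 the count was 1, beside 15.3% of all genes. A positive slope on Nlrc5 was called for 5 of 21, where 2.58% of all genes had one. The count was 4 with the close control libraries summed, 1 with Ccr2 KO 4 and 5 summed as well, 2 without Ccr2 KO 4 and 5, and 0 without Ccr2 KO 1 and 3. The 5 were Tapbpl (the tapasin relative TAPBPR, 0.64 ± 0.10 SE), Psme2 (0.56 ± 0.09) and Psme1 (0.48 ± 0.10) of the interferon-inducible proteasome activator, the lysosomal protease Ctss (0.39 ± 0.08) and the peptide-trimming enzyme Erap1 (0.34 ± 0.09). The constitutive catalytic subunits had slopes of 0.01 ± 0.09 (Psmb5), 0.13 ± 0.07 (Psmb6) and 0.14 ± 0.06 (Psmb7), and none was called (adjusted p 0.254 to 0.976). Between genotypes their log2 fold changes were 0.17, 0.17 and 0.06, and that of Uggt1, the folding sensor of the endoplasmic reticulum, was 0.13. On the lower side stood Cd74, the class II invariant chain, at -1.41 ± 0.51 (SE, edgeR adjusted p = 0.210), Ctss at -0.37, the chaperone Hspa5 at -0.32 and Bcap31 at -0.10. Cd74 passed in DESeq2 (adjusted p = 0.0425).

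Among 14 other class I and class I-like genes, 8 had a called positive slope on Nlrc5, beside 2.58% of all genes. Between genotypes 0 were called (3 at an unadjusted p under 0.05, beside 15.3% of all genes). The 8 slopes called became 7 with the close control libraries summed, 3 with Ccr2 KO 4 and 5 summed as well, 5 without Ccr2 KO 4 and 5, and 0 without Ccr2 KO 1 and 3. The 8 were the MHC-linked genes H2-Q6 (1.76 ± 0.29 SE), H2-Q7 (1.52 ± 0.28), H2-Q4 (1.05 ± 0.14), H2-T10 (1.04 ± 0.13), H2-T22 (0.88 ± 0.14), H2-T24 (0.86 ± 0.15), H2-T23 (0.81 ± 0.17), which encodes Qa-1, and H2-M3 (0.65 ± 0.13), which presents formylated peptides. Near-identical sequence among the Q and T genes leaves their separate levels uncertain. H2-Q7, which encodes Qa-2, had 5.10, 100.4, 17.6, 43.2 and 60.7 CPM in Ccr2 KO libraries, against 27.2, 46.5, 83.4, 73.2 and 40.1 CPM in control libraries. The 4 class I-like genes that lie outside the MHC had slopes below 0 that were not called, at -0.38 for Cd1d1, -0.17 for the antibody receptor Fcgrt, -0.12 for the iron regulator Hfe and -0.11 for Mr1.

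In 2 of the 14 the genotypes did not overlap, beside 4.70% of all genes. Cd1d1, which presents lipids to NKT cells, had 0.747, 1.35, 1.72, 1.10 and 0.626 CPM in Ccr2 KO, against 2.20, 4.37, 1.80, 2.02 and 5.56 CPM in control (log2 fold change -1.52 ± 0.40 SE, edgeR adjusted p = 0.100). Mr1, which presents vitamin metabolites to MAIT cells, had 23.1, 21.7, 28.4, 20.6 and 22.1 CPM in Ccr2 KO, against 15.0, 16.7, 16.5, 18.5 and 20.5 CPM in control (0.41 ± 0.12, edgeR adjusted p = 0.128). Every Ccr2 KO library was below every control for Cd1d1 and above every control for Mr1, by a small margin in each, and both passed in DESeq2 (adjusted p = 0.00895 and 0.0399). The next by p were Fcgrt (0.27), H2-M2 (0.60) and Hfe (0.02) on the higher side and H2-K2 (-0.45), H2-T24 (-0.63) and H2-T23 (-0.49) on the lower side, none of them called.

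Of 26 regulators of class I genes, 0 were called between genotypes (2 at an unadjusted p under 0.05). Of all genes, 15.3% had an unadjusted p under 0.05, 4.70% did not overlap between genotypes and 2.58% had a called positive slope on Nlrc5. Called positive slopes on Nlrc5, of which none was called without Ccr2 KO 1 and 3, included those of Ciita, the class II transactivator (1.42 ± 0.25 SE), the interferon signal transducer Stat2 (0.72 ± 0.11), and the interferon regulatory factors Irf8 (0.54 ± 0.11) and Irf1 (0.52 ± 0.09). The r of deviations with Nlrc5 was high for Stat2 (0.93), Irf1 (0.92) and Ciita (0.89) and lowest for the interferon receptor chain Ifnar1 (-0.84), the NF-kappaB subunit Rela (-0.77), the receptor chain Ifngr1 (-0.58) and the kinase Jak1 (-0.56). The kinase Jak2 had the lowest p between genotypes (log2 fold change -0.57 ± 0.17, edgeR adjusted p = 0.133, DESeq2 adjusted p = 0.0450), with no overlap of the groups, followed by Irf2 (-0.29, edgeR adjusted p = 0.150), Ifnar2 (-0.20) and Ciita (-1.09). On the higher side Ifnar1 (0.15), Ifngr2 (0.08), the methyltransferase Ezh2 (0.19) and Nfya (0.09) were not called.

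**Figure D5:**
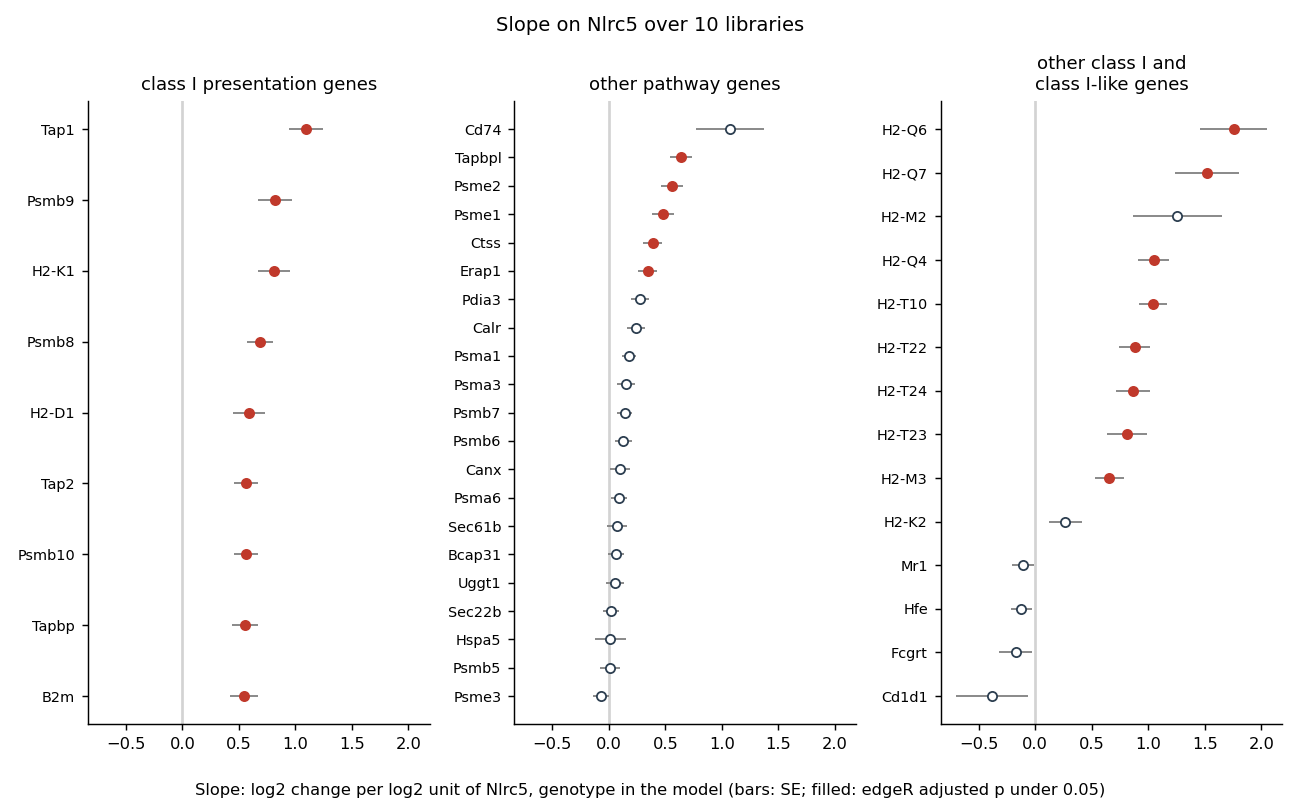
Slope on Nlrc5 (horizontal axis, log2 per log2, with standard errors) of the 9 class I genes, 21 other pathway genes and 14 other class I and class I-like genes, from the fit with genotype over 10 libraries; filled points passed an adjusted p of 0.05. All 9 class I genes are filled, between 0.54 and 1.10, beside 5 of 21 and 8 of 14 in the other lists.

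Many genes of the interferon response also had called slopes on Nlrc5 over all libraries. Without Ccr2 KO 1 and 3, only 3 genes of all tested had a called slope, 2 of them positive. Of 12 type I interferon-induced markers 10 had a called positive slope on Nlrc5, and their summed level was 387, 1989.6, 637, 1032 and 1869 CPM in Ccr2 KO libraries 1 to 5, against 1169 to 2479 CPM in control libraries. For this sum Ccr2 KO library 4 was also below every control. Of 11 interferon gamma-induced markers 10 were tested and 7 had a called positive slope, and their summed level was 363 and 402 CPM in Ccr2 KO libraries 1 and 3, 892 to 1513 CPM in the other Ccr2 KO libraries and 618 to 1177 CPM in control libraries. The 7 MHC class II markers, Cd74 and Ciita among them, summed to 778 to 6485 CPM in Ccr2 KO and 6013 to 10819.6 CPM in control libraries, with 1 of 7 slopes called. Of the cell-type lists, 5 of 9 fibroblast, 3 of 8 tested neutrophil, 2 of 8 classical monocyte, 2 of 12 macrophage and 1 of 10 dendritic cell markers had a called negative slope, and 2 macrophage markers a positive one, where 4.05% of all genes had a negative and 2.58% a positive slope. The summed levels were 2419 to 6006 CPM in Ccr2 KO and 2812 to 7114 CPM in control for fibroblast markers, 114 to 219 and 162 to 622 CPM for neutrophil markers, 28.9 to 59.5 and 54.2 to 87.2 CPM for dendritic cell markers, and 25.9 to 130.5 and 587 to 1637 CPM for classical monocyte markers. T and NK cell, B cell, endothelial and melanoma markers had no called slope and summed to 89.9 to 276, 16.4 to 61.8, 18.8 to 31.3 and 31.2 to 59.9 CPM in Ccr2 KO, against 92.3 to 245, 41.1 to 74.5, 31.7 to 84.1 and 33.0 to 57.3 CPM in control. The share of reads that met no gene was 5.68% and 5.20% in Ccr2 KO libraries 1 and 3, 3.63% to 3.89% in the other Ccr2 KO libraries and 4.05% to 5.43% in control libraries. The part of other cell types and of this read share in the slopes was not tested.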

How the data were processed

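Directional libraries of polyadenylated RNA were made from FACS-sorted F4/80+ cells, per the labels' protocols, and the submitters' processing notes name STAR and GRCm39, with STAR version, annotation and read length not given in the sources used here. What the authors deposited are whole-number read counts per gene, unstranded and per strand, and the reverse-strand column was used (96.2% to 96.5% of stranded counts). Unmapped (6.87% to 8.07%), ambiguous (1.83% to 2.10%) and unassigned reads (3.63% to 5.68%) stayed out of library sizes. Strand matters here: unstranded counts were 0.581 to 0.609 of the reverse-strand counts for Tap2, 0.619 to 0.654 for Psmb8 and 0.785 to 0.823 for Tapbp. A combined table with 10 unnamed columns was not used. Of 55359 gene IDs 52083 matched a symbol.

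The test across genes was that of edgeR 4.0.16, run in R 4.3.3 (filterByExpr with a minimum count of 10, TMM, quasi-likelihood F-test, Benjamini-Hochberg adjustment over all genes tested, threshold 0.05). CPM uses TMM-scaled library sizes, and log2 CPM for slopes, spreads and correlations a prior count of 2. A standard error is the size of the log2 value divided by the square root of F. Slopes were fitted with genotype in the model, with Nlrc5 itself left out, and the interaction with genotype in a second model. The spread test was run in R, and the correlation tests used numpy 2.4.6 with ranks from scipy 1.17.1. Alternatives used DESeq2 1.42.0 and limma 3.58.1, and the fits were tested on simulated data. Named genes are the 10 class I genes, Ccr2, from each other list up to 4 genes with the smallest p in each direction and every gene past the threshold, the 8 genes most like Nlrc5, and the 4 regulators with the highest and the lowest r. A gene that this rule also takes is not reported here. The genes, lists and tests were chosen with earlier results of these data known. Depth limits a value by counting error only; the smallest class I count in a library was 1374.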

Additional observations from a re-analysis of the deposited data

How the results depend on the processing

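The count of class I genes called between genotypes was 0 under all 21 alternatives. Of all genes 203 were called, and 820 with DESeq2, 446 with limma-voom, 55 with the replicate number as a block, 29 with the close control libraries summed, 8 with Ccr2 KO 4 and 5 summed too, 50 without Ccr2 KO 4 and 5, and 62 to 267 with 1 library left out, under 203 by over 1.5 times without Ccr2 KO 4 or 5 or control 1, 2, 3 or 4. DESeq2 called 1 other pathway gene, 2 class I-like genes and 1 regulator. The log2 fold changes of H2-D1 and Tapbp were 0.020 and 0.076 in limma-voom. With 1 library left out they ranged over -0.33 to 0.039 for H2-K1, -0.18 to 0.12 for H2-D1, -0.25 to 0.17 for Tap1, -0.29 to 0.00099 for Tap2, -0.15 to 0.14 for Tapbp, -0.29 to 0.041 for Psmb8 and -0.29 to 0.087 for Psmb9. Each upper end was without Ccr2 KO library 1, where 3 of 10 fold changes were below 0. Nlrc5, B2m and Psmb10 stayed below 0 throughout.

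The 9 called slopes among 953 of all genes became 0 and 0 with the replicate number as a block, 1 and 173 with all close libraries summed, 1 and 294 without Ccr2 KO 4 and 5, and 0 and 3 without Ccr2 KO 1 and 3. The slopes themselves were 0.42 (Tapbp) to 0.99 (Tap1) with the block and 0.55 (Tapbp) to 1.12 (Tap1) with all close libraries summed, against 0.54 (B2m) to 1.10 (Tap1) over all libraries. Summing the close control libraries alone gave 493 genes in all, leaving the genotype out gave 310, and leaving out 1 library gave 557 to 1127, lowest without Ccr2 KO 3 or 5 or control 3 or 4 (557 to 606). The deviations of same-numbered libraries had r of 0.34, 0.08, -0.53, 0.18 and -0.22 over all genes. These r had no test, so they cannot show whether the numbers pair the libraries. The block costs 4 degrees of freedom. Tap1 passed in 20 of 22 alternatives, B2m in 12 and H2-D1 in 11, and no slope changed sign. The 6 correlations called became 0 without Ccr2 KO 1 and 3, an alternative listed for them after seeing the data. The few orders of that test limit what can pass, so that 0 does not show that the link was lost. The causes were not tested.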
